A study of Danio rerio with 18 samples.

Results

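The chromatin of endothelial cells (ECs) of the zebrafish liver was compared between fish treated with thioacetamide (TAA) and control fish, by means of ATAC-seq peaks, the stretches of DNA where a transposase found open chromatin. A peak of the EC TAA list was called gained if no peak of the EC control list overlapped it by at least 1 bp, a peak of the EC control list was called lost if no EC TAA peak overlapped it, and all others were called kept. Of 54209 EC TAA peaks, 27701 were gained and 26508 were kept, and of 51257 EC control peaks, 24800 were lost and 26457 were kept. These 105466 EC peaks were part of 308216 peaks in 6 lists. The gained peaks were 51.1% of the TAA list and the lost peaks 48.4% of the control list, and these shares are the background for every count of changed peaks.

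TAA fish were injected into the abdomen with 500 mg/kg TAA 6 times within 2 weeks. Control fish were injected with sterile water by the paper's methods, which elsewhere name saline. All fish were adult females of the Tg(kdrl:ras-mCherry) line in AB background, in which the kdrl promoter drives a red membrane protein in vessel endothelium of any kind, and mCherry positive liver cells were sorted, 60000 for each library. The study also holds hepatocytes (HEPs, Tg(fabp10a:dsRed)) and hepatic stellate cells (HSCs, Tg(hand2:EGFP)) under both treatments, so cell type and transgenic line are the same factor. Each of the 6 groups had 3 libraries. The paper counts 6 control fish overall and a larger number of TAA fish. Some TAA fish died before the end of treatment, so TAA libraries come from survivors, while all control fish survived. The paper does not state how fish were divided among the libraries. Its 6 control fish are fewer than the control libraries of the series. By this count not all control libraries came from separate fish, and libraries of a group may not be independent. The authors combined the 3 libraries of a group into 1 peak list. No spread between libraries and no test could therefore be computed. The lists hold no read counts, the study's sequencing totals were not used here, and the Wilson 95% intervals given here cover counting error over peaks only.

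The liver sinusoids are lined by ECs that are permeable to plasma, clear waste from the blood and release signals that keep HSCs quiescent. TAA is turned into reactive products by liver enzymes and harms hepatocytes first, and ECs of an injured liver are known to lose part of their specialised state. Open chromatin marks promoters and enhancers in use, so each cell type carries a set of open regions of its own beside a set shared by most cells.

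The EC control list stood apart from the other 5. Of its peaks, 30.97% (30.6 to 31.4) overlapped no peak of any other list, against 6.21% in the EC TAA list, 10.4% in HSC TAA, 4.49% in HSC control, 1.55% in HEP TAA and 1.58% in HEP control. Every gained or lost call rests on this list, which is the sole one of its group. A change inside ECs, a change in which cells were sorted and a property of these 3 control libraries cannot be told apart. The labelled cell type could not be checked against its markers, because none of 47 endothelial genes listed for this purpose had a known position in the tables used here.

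Peaks on either side of the overlap rule were few. Of the gained peaks, 118 (0.426%) lay within 50 bp of a control peak, and 166 kept TAA peaks overlapped a control peak by 50 bp or less. Of the lost peaks, 109 (0.440%) lay within 50 bp of a TAA peak, and 168 kept control peaks overlapped by 50 bp or less. These borderline peaks had median score percentiles between 17.8 and 34.5 in their lists. For the gained ones the median was 34.5, close to the 34.9 of all gained peaks. For the lost ones it was 24.0, against 38.0 for all lost peaks. Few changed peaks lay within 500 bp of a peak of the other list, 8.93% of gained and 6.85% of lost peaks. The median distance was 6828 bp for gained peaks and 8042 bp for lost peaks. No peak of the other list lay within 10 kb for 39.8% of gained and 44.0% of lost peaks. Starts of neighbouring peaks within a list were a median of 9359.5 bp apart in EC TAA and 10273 bp in EC control. The median distances were thus no longer than the usual spacing.

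The question of how strong the changed peaks were was addressed by score rank. The score of a peak rises with the negative log10 of its q-value, in units of 10 for each log10 step. Since it depends on depth, strength was ranked by percentile within a list, where 100 is the highest. Scores printed for single peaks are not on one scale between lists. Gained peaks had a median percentile of 34.9 and kept TAA peaks one of 64.7. Lost peaks had a median percentile of 38.0 and kept control peaks one of 61.2. The gained share was 17.6% (16.6 to 18.7) in the decile of the TAA list with the highest scores, 44.5% in the fifth decile and 80.6% in the last. The lost share of the control list was 16.1% (15.1 to 17.1), 46.5% and 76.0% at these places. Changed peaks were thus found at every level of score and were more frequent among weak peaks. Of 414 TAA peaks at the highest score of 3240, 6 were gained, and of 114 control peaks at that score, 0 were lost, which by the limit of 3 counts allows a share of up to 2.63%.

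Gained and lost peaks were then looked up in the lists of the other cell types. Among the 956 gained peaks of the highest decile, 953 (99.7%, 99.1 to 99.9) had a peak in all 4 lists of HSCs and HEPs, and 0 of 956 had a peak in none of them, which allows a share of up to 0.314% when 3 counts are taken as the limit. Kept peaks of the same decile were in all 4 lists in 99.9% of cases. Among the 825 lost peaks of the highest decile, 287 (34.8%, 31.6 to 38.1) were in all 4 lists, 232 were in 1 to 3 of them and 306 (37.1%, 33.9 to 40.4) were in none, whereas 98.9% of kept control peaks of that decile were in all 4. Nearly all strong TAA peaks, gained or kept, thus overlapped peaks of the other liver cell types under both treatments. This presence was therefore not particular to gained peaks. Of the strong lost peaks, those 306 had been called in the EC control list only. In the best 5% of the control list, 22.7% of lost peaks were in none of the 4 lists and 49.3% in all 4, so this share was lower among the very strongest.

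**Figure D1:**
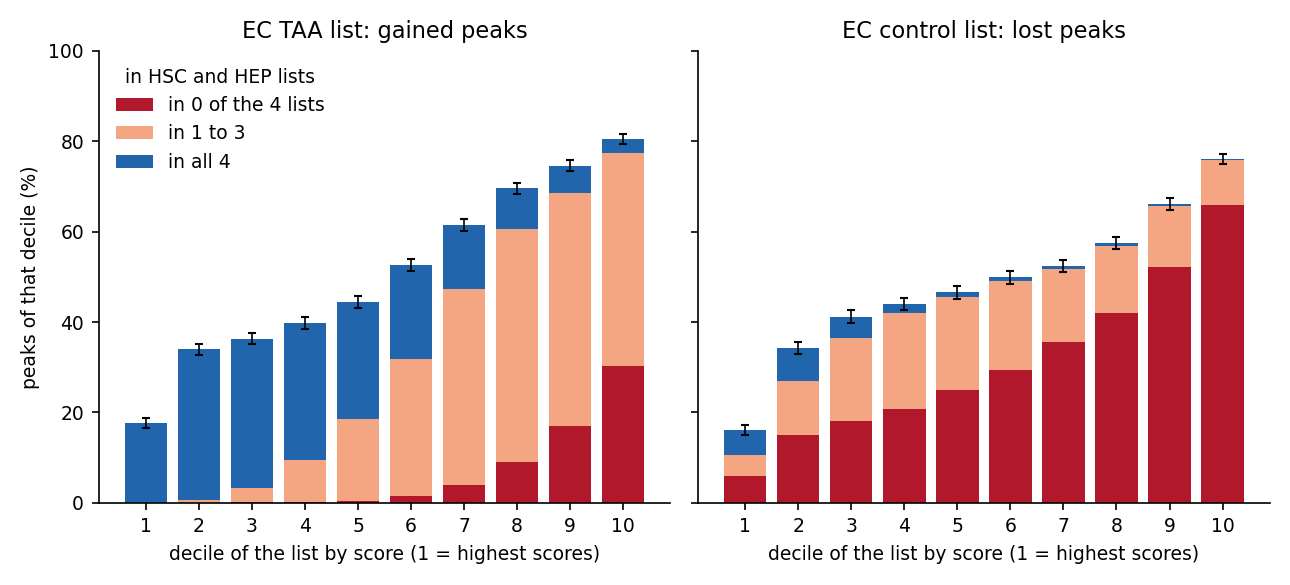
Share of gained peaks in each decile of the EC TAA list (left) and of lost peaks in each decile of the EC control list (right), in percent of the peaks of that decile, with decile 1 holding the highest scores and bars split by the number of the 4 HSC and HEP lists that have an overlapping peak. Error bars are Wilson 95% intervals of the whole bar. In decile 1, 17.6% of TAA peaks were gained and almost all of these were in all 4 lists, whereas 16.1% of control peaks were lost and 306 of these 825 were in none.

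This contrast held down the score scale. In the fifth decile, 58.2% of gained peaks were in all 4 HSC and HEP lists and 0.664% in none, against 2.22% of lost peaks in all 4 and 53.7% in none. In the last decile, 37.7% of gained and 86.8% of lost peaks were in none. Over all scores, 12.2% (11.8 to 12.5) of gained peaks and 64.0% (63.4 to 64.6) of lost peaks had no peak in any of the 4 lists. An EC peak in no other list is gained or lost by rule. These are therefore the same peaks as the 6.21% of EC TAA and 30.97% of EC control given above, and no separate observation. At the other end, 37.8% of gained and 4.85% of lost peaks were in all 4, beside 79.9% of kept peaks in either EC list. In HSCs the order was the opposite: 41.8% of gained and 27.6% of lost peaks had no peak in the 4 lists of the other cell types. In HEPs the shares were 7.70% of gained and 11.1% of lost peaks.

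**Figure D2:**
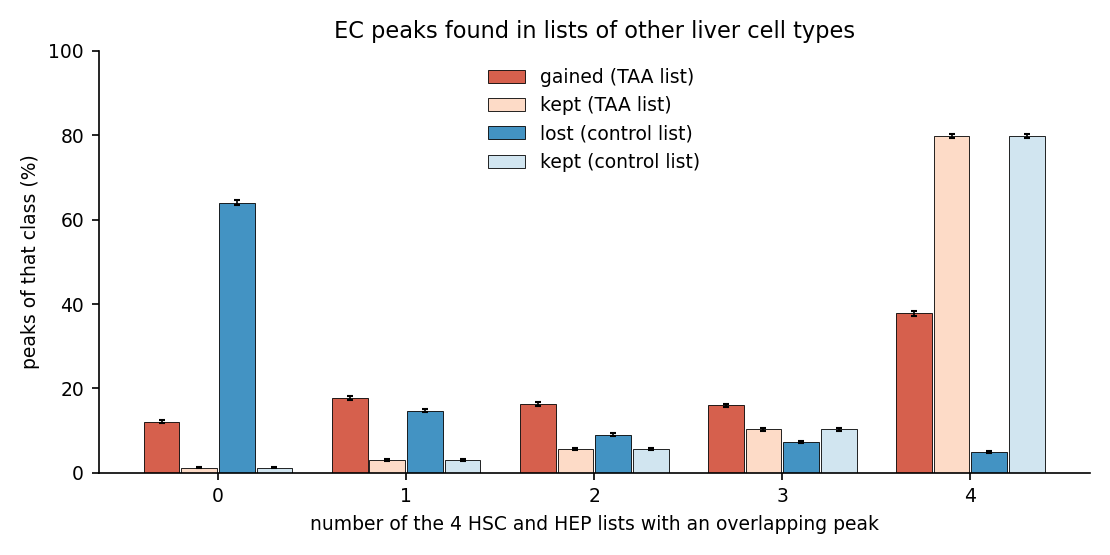
Percent of gained, kept (TAA list), lost and kept (control list) EC peaks by the number of the 4 HSC and HEP lists that contain an overlapping peak, with Wilson 95% intervals. Lost peaks stood highest at 0 lists (64.0%), both classes of kept peaks at 4 lists (79.9%), and gained peaks were spread over all numbers with 37.8% at 4.

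Where a gained peak had a counterpart in a single one of the 4 lists, that list was HSC TAA for 3987 of 4899 peaks (81.4%, 80.3 to 82.4). HSC control was the single list for 11.1% of them, HEP TAA for 3.74% and HEP control for 3.82%. For lost peaks with a single counterpart, the list was HSC control for 2178 of 3659 (59.5%, 57.9 to 61.1), HSC TAA for 23.1%, HEP TAA for 9.73% and HEP control for 7.60%. HSC TAA was the longest of these lists, and it was also the single list for 76.2% of kept TAA peaks and 75.9% of kept control peaks with a single counterpart. Gained peaks were thus close to kept ones in this respect, while for lost peaks HSC control took the place of HSC TAA.

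The rank of the strong changed peaks in the other lists was examined next. The 953 strong gained peaks found everywhere were also strong there, with a median percentile of 92.6 in HSC TAA, 88.7 in HSC control, 88.1 in HEP TAA and 86.8 in HEP control. The 287 strong lost peaks found everywhere had a median percentile of 20.6 in HSC TAA and of 67.7 in HSC control. In HEPs their medians were 50.03 in TAA and 48.7 in control. These lost regions, among the widest of the EC control list with a median of 315 bp, were 182 bp wide in HSC TAA and 259 bp in HSC control. They thus ranked lower in TAA than in control HSCs, and about equally in both HEP lists. Ranks of strong kept peaks were not computed in the same way, so these medians cannot be called particular to changed peaks. The lists of HSCs and HEPs did not enter the gained and lost calls. They did enter the choice of the peaks ranked here, since only those present in every HSC and HEP list were taken. These were 953 of 956 gained and 287 of 825 lost peaks of the highest decile. The medians therefore do not describe most of the strong lost peaks. Each of these lists is again 1 pooled list.

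The strongest gained peaks illustrate this. A peak on chromosome 8 (29999874 to 30000236, GRCz11) had a score of 3240 in EC TAA and no overlapping EC control peak, the nearest lying 26082 bp away. Its percentile was 94.6 in HSC TAA, 46.0 in HSC control, 67.3 in HEP TAA and 73.9 in HEP control. A peak on chromosome 19 (4505405 to 4505712), also at 3240 in EC TAA, lay 54552 bp from the nearest EC control peak. It stood at the 97.0 percentile or higher in all 4 HSC and HEP lists. The 10 strongest gained peaks were all in 4 of the 4 lists, and except for the chromosome 8 peak their percentiles there were 89.4 or more.

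The strongest lost peaks behaved differently. A peak on chromosome 7 (5393791 to 5394129) had a score of 2772 in EC control, at the 99.3 percentile, and the nearest EC TAA peak was 18407 bp away. Its percentile was 8.73 in HSC TAA, 74.4 in HSC control, 53.8 in HEP TAA and 62.4 in HEP control. A peak on chromosome 9 (23665546 to 23665883) had a score of 2796 in EC control. It stood at 53.7 in HSC TAA, 86.0 in HSC control, 69.3 in HEP TAA and 65.8 in HEP control. The 10 strongest lost peaks were also in all 4 lists, but their percentiles in HSC TAA did not exceed 53.7. No gene is named for these peaks, since none lay near a gene start with a position known here.

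Genes could be named at some promoters only. The study's own annotation of promoter peaks in HSCs and HEPs was at hand in part, for 1507 genes on 3 chromosomes, and was used solely to give a name to a peak within 3 kb of a gene start. It holds genes with a promoter peak in HSCs or HEPs, so the named peaks are no sample of the changed peaks, no share is drawn from them, and another gene may start as near. Symbols are spelled as in the table of gene names.

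The 10 strongest gained promoter peaks that could be named are given by gene. The gained peak with the highest score was at uox, the urate oxidase that breaks down uric acid in the liver (chromosome 11, 8167797 to 8168150). It had a score of 2509 in EC TAA and no overlapping peak in EC control, the nearest being 2358 bp away. It stood at the 96.9 percentile in EC TAA and between 96.3 and 98.0 in the HSC and HEP lists. At ucp3, which encodes a mitochondrial uncoupling protein (chromosome 10, 36648006 to 36648227), the EC TAA score was 2247. ACOT12, an acyl-CoA thioesterase of fatty acid metabolism (chromosome 10, 42920766 to 42921049), had an EC TAA score of 1869. Both had no overlapping EC control peak and percentiles between 84.9 and 95.2 in the 5 lists where they occurred.

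The peak at itih3b.2, a heavy chain of the inter-alpha-trypsin inhibitor of plasma (chromosome 11, 37201324 to 37201568), had a score of 1890 in EC TAA. The peak at ptgdsa, a prostaglandin D synthase (chromosome 10, 10788664 to 10788879), had a score of 2016, and its nearest EC control peak was 12686 bp away. The other gained peaks named by the rule were at dre-mir-2184, a microRNA gene, at si:dkey-159f4.2, at the membrane protein gene TMEM135, at FGF13 of the fibroblast growth factor family, and at a 5S_rRNA gene. Their EC TAA scores ran from 1746 to 2039. The 5S_rRNA peak is uncertain, since genes of this family occur in many near-identical copies. All 10 were in 4 of the 4 HSC and HEP lists.

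The strongest lost promoter peaks were named by the same rule. At TACC1, which encodes a coiled-coil protein of the centrosome (chromosome 10, 20481824 to 20482348), the EC control peak had a score of 2044 and no EC TAA peak overlapped it. Its percentile was 97.1 in EC control, 27.7 in HSC TAA, 79.9 in HSC control, 56.6 in HEP TAA and 67.9 in HEP control. At SEMA3F, a secreted semaphorin that repels growing axons and vessels (chromosome 11, 35575706 to 35575979), the EC control score was 1752 and the nearest EC TAA peak lay 110458 bp away. At TIAM1, an activator of the small GTPase Rac that acts on cell junctions (chromosome 10, 25657268 to 25657517), it was 1618. The TIAM1 peak stood at 32.5 in HSC TAA and 71.5 in HSC control.

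The lost peaks named by this rule included those at KLF3 and KLF7, genes of Krüppel-like transcription factors. Their strength follows from the rule, and other genes of this family were not looked up. The peak at KLF3 (chromosome 1, 18614943 to 18615402) had a score of 1719 in EC control and stood at 21.8 in HSC TAA against 45.5 in HSC control. The peak at KLF7 (chromosome 1, 6494349 to 6494735) had a score of 1667 in EC control, 144553 bp from the nearest EC TAA peak. It stood at 37.3 in HSC TAA and 26.3 in HSC control, in the order opposite to KLF3. The peak at PCDH17, a cell adhesion protein of the protocadherin family (chromosome 11, 32723923 to 32724182), had a score of 1562 in EC control but a percentile of 6.07 or less in the 3 other lists that held it. The peak at palm2akap2, which encodes a protein that anchors protein kinase A (chromosome 10, 4874761 to 4875286), had a score of 1476 in EC control. It was absent from both HEP lists and stood at 6.77 in HSC TAA and 1.54 in HSC control. The others were at the receptor kinase gene GRK4, the kinase gene MAP3K1 and si:ch211-1a19.3, with EC control scores from 1727 to 1797.

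Gene lists of known function were placed by the same names, for few members each. Of 38 genes listed as hepatocyte markers, 6 could be placed, and all 6 had EC TAA promoter peaks. Their highest EC TAA percentile was between 79.2 and 94.0, whereas in EC control 4 of them reached between 8.56 and 32.5 and 2 had no peak. The same was not counted over all annotated genes, and some genes of other lists moved likewise. The shift can therefore not be called particular to hepatocyte markers. At fgg, the gamma chain of fibrinogen, a kept peak (chromosome 1, 25679256 to 25679542 in EC TAA) had a score of 2111 in EC TAA and 108 in EC control. At ambp, the precursor of a plasma protease inhibitor, the kept peak had a score of 1676 in EC TAA and 106 in EC control. At fga, the alpha chain of fibrinogen, these scores were 1747 and 86 in the same order. The beta chain gene fgb had gained peaks with EC TAA scores of 1108 and 824, and 1 lost peak with an EC control score of 193.

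Of the other hepatocyte genes, the coagulation factor gene f9 had gained peaks with EC TAA scores of 1121 and 877 and none in EC control. The complement gene c3a.1 had 3 gained peaks, the highest at 1484, and none in EC control. The strongest EC TAA peak of each of the 6 genes was in all 4 HSC and HEP lists, and that of fgg stood at 95.4 in HSC TAA and 94.0 in HSC control. The weakest gained peak of c3a.1, with a score of 108, was in none of the 4. Scores of 2 lists are not on one scale, and the annotation held genes open in HSCs or HEPs by construction. Whether hepatocyte chromatin among the sorted cells had a part in the gained peaks was not tested.

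Lipid genes showed the same pattern at some promoters and not at others. Of 47 listed genes, 4 could be placed. At mttp, which loads lipid onto lipoproteins, a kept peak had a score of 2558 in EC TAA and 82 in EC control, or the 97.1 and the 2.84 percentile. At fabp2, a fatty acid binding protein, the kept peak had 2773 in EC TAA and 190 in EC control, percentiles of 98.1 and 31.8. At pparg, a nuclear receptor that controls fat storage, 3 peaks were gained, the highest with an EC TAA score of 896. A further pparg peak was kept at 445 in EC TAA and 361 in EC control, percentiles of 50.5 and 56.9. The promoter of hmgcs1, an enzyme of sterol synthesis, was open in both. Its strongest peak was at 3240 in EC TAA and 3164 in EC control, percentiles of 99.6 and 99.8.

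Of 40 genes of redox and xenobiotic metabolism, 4 could be placed, and cyp3a65, a drug-metabolising cytochrome P450, had 3 gained peaks, the highest at 1214 in EC TAA, and no peak in EC control. The antioxidant genes had kept peaks at their promoters. The peak at sod1, superoxide dismutase, had 2685 in EC TAA and 2022 in EC control, percentiles of 97.7 and 97.1. At prdx1, a peroxiredoxin, the kept peak had 1154 in EC TAA and 851 in EC control, percentiles of 80.3 and 82.7. A further prdx1 peak with an EC TAA score of 855 was gained. At txn, thioredoxin, the kept peak had 606 in EC TAA and 545 in EC control, percentiles of 61.0 and 70.4. A further gained txn peak had 374.

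Both inflammatory genes that could be placed had peaks in EC control and none in EC TAA. At il1b, which encodes the cytokine interleukin 1 beta, 2 control peaks with scores of 784 and 312 were lost, and no EC TAA peak lay in the window. At cxcl8a, a chemokine that attracts neutrophils, 1 control peak with a score of 309 was lost. The cxcl8a peak stood at 5.09 in HSC TAA and 54.6 in HSC control, and at 6.07 in HEP TAA and 10.4 in HEP control. Of 36 genes on the inflammatory list, these were the 2 with a known position, and the same was not counted over all annotated genes.

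Genes of vessel signalling were mixed, with 4 of 50 placed. At id1, a target of BMP signalling in ECs, 2 peaks were kept and 2 were lost, and the stronger lost peak had an EC control score of 966 and occurred in no other list. The kept peaks of id1 moved in opposite directions. One had a score of 1572 in EC TAA and 461 in EC control, and the other had 504 in EC TAA and 1125 in EC control. Their percentiles in EC TAA and EC control were 88.2 and 65.2, and 54.7 and 88.7, in the same order. At smad1, which carries BMP signals to the nucleus, the stronger kept peak had 1530 in EC TAA and 2313 in EC control. At jag1a, a Notch ligand, the stronger kept peak had 1040 in EC TAA and 378 in EC control. Percentiles in EC TAA and EC control were 87.5 and 98.2 for this smad1 peak, and 77.4 and 58.5 for this jag1a peak. The window of vegfd held no peak in either EC list. The 1 placed gene of the matrix list was loxl2a, a lysyl oxidase that cross-links collagen. Its kept peak had 673 in EC TAA and 1151 in EC control, percentiles of 64.5 and 89.2. At actb1, the beta actin gene used by every cell, 1 peak was gained, 3 were kept and 2 were lost. The strongest kept actb1 peak had 1300 in EC TAA and 1094 in EC control, percentiles of 83.4 and 88.1. At anxa4, a marker of bile duct cells, 2 peaks were kept and 1 was lost. The stronger kept anxa4 peak had 969 in EC TAA and 548 in EC control, percentiles of 75.5 and 70.5. No gene of the stellate cell or leukocyte lists could be placed.

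Peaks kept through TAA were examined for changes of rank. Of the kept peaks, 26068 formed pairs of a single TAA peak with a single control peak. In addition, 163 control peaks overlapped 2 or more TAA peaks and 113 TAA peaks overlapped 2 control peaks. In the pairs, summits lay within 25 bp of each other in 72.3% of cases, with a median shift of 10 bp. The TAA peak was the wider one in 61.1% of pairs, with a median of 197 bp in TAA and 186 bp in control. The same places thus kept their position while many changed in rank.

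The percentile in EC TAA was over 25 points above that in EC control for 3852 pairs (14.8%, 14.4 to 15.2), and over 25 points below it for 2619 pairs (10.0%, 9.69 to 10.4). Across pairs, which are not independent, Pearson's r of the percentiles was 0.54. In 2830 pairs both peaks were in the highest decile of their lists. In 718 pairs the TAA peak was in the highest decile and the control peak in deciles 6 to 10, and in 180 pairs the reverse was found. These percentiles include the changed peaks of each list. With ranks among the pairs alone, 12.4% moved up and 12.6% down, so the lists do not show that more kept peaks moved up than down. The strongest moves remained unequal, with 458 pairs strong in TAA and weak in control by these ranks against 110 for the reverse.

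**Figure D3:**
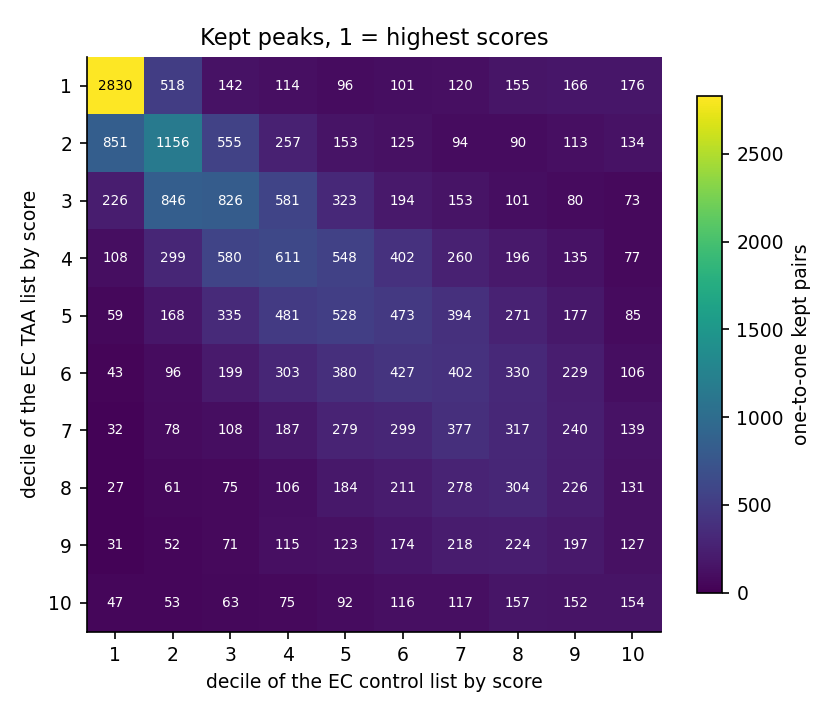
Number of kept pairs by decile of score in the EC TAA list (vertical axis) and in the EC control list (horizontal axis), where 1 is the decile with the highest scores and color gives the number of pairs. Most of the strongest peaks stayed strong (2830 pairs at the upper left), and the upper right corner, strong in TAA and weak in control, held more pairs (176) than the lower left corner (47).

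Pairs that moved up in EC TAA were also those most often present elsewhere. Of the pairs up by over 25 points, 99.3% had a peak in HSC TAA, 97.4% in HSC control, 93.9% in HEP TAA and 91.2% in HEP control. Of the pairs down by over 25 points, these shares were 91.1%, 85.5%, 74.0% and 68.2%, and of the pairs within 25 points 97.8%, 94.5%, 89.5% and 85.8%. Presence was read at the TAA peak of each pair, and it rose with TAA score. Of kept TAA peaks, 99.9% in the highest decile and 23.4% in the last were in all 4 lists. A rise favours high TAA percentiles and a fall low ones, so the order of these shares was partly fixed in advance. Shares at like TAA score were not computed. Most kept regions were in HSC TAA whichever way they moved.

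The largest rise among strong kept peaks was on chromosome 13 (36129559 to 36129887), with a score of 3240 in EC TAA and 77 in EC control, and it stood between 95.6 and 99.1 in the HSC and HEP lists. The next was on chromosome 7 (50262464 to 50262770), with 3240 in EC TAA and 79 in EC control. The largest fall was on chromosome 1 (20813722 to 20814114), with a score of 56 in EC TAA and 2138 in EC control, and HSC control was the only other list with a peak there, at the 5.70 percentile. Another fall, on chromosome 5 (27867474 to 27867792), had 98 in EC TAA and 1857 in EC control and stood between 60.3 and 81.5 in the HSC and HEP lists. All 5 largest rises were in all 4 HSC and HEP lists.

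Width went with score. Gained peaks had a median width of 167 bp and kept TAA peaks one of 197 bp, and lost peaks 175 bp and kept control peaks 186 bp. At matched rank the order was turned round in most deciles, 1 to 6 for gained and 1 to 9 for lost peaks. In the highest decile, gained peaks were 295 bp wide against 282 bp for kept TAA peaks, and lost peaks 324 bp against 269 bp for kept control peaks. In the last decile the medians were 112 bp for gained and 113 bp for kept TAA peaks, and 122 bp for lost and 126 bp for kept control peaks. Lost peaks were the widest class in the highest decile.

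Changed peaks were not more crowded than kept ones. Gained peaks had on average 1.71 other TAA peaks within 10 kb and kept TAA peaks 1.69. Lost peaks had 1.51 other control peaks within 10 kb and kept control peaks 1.52.

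Changed peaks followed each other along the chromosomes. The next TAA peak was gained after 57.7% (57.1 to 58.3) of gained peaks and after 44.2% (43.6 to 44.8) of kept peaks. The next control peak was lost after 59.3% (58.7 to 59.9) of lost peaks and after 38.2% (37.6 to 38.8) of kept peaks. On all 25 chromosomes the share was higher after a changed peak, for gains and for losses. In HSCs, 24.8% of TAA peaks were gained and 16.3% of control peaks lost. There the next TAA peak was gained after 27.4% of gained and 23.9% of kept peaks. The next control peak was lost after 24.5% of lost and 14.7% of kept peaks. In HEPs, where 20.1% of TAA peaks were gained and 14.2% of control peaks lost, these shares were 23.0% and 19.4% for gains, and 16.9% and 13.7% for losses. The differences in points were smaller than in ECs, but the overall shares were lower too, so the strength of clustering cannot be compared by them.

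The shares were then taken by distance to the next peak. Where the next control peak was 1 to 5 kb away, it was lost after 64.4% of lost and 39.3% of kept peaks. Where it was over 50 kb away, it was lost after 51.4% of lost and 42.9% of kept peaks. For gains, the shares were 58.8% after gained and 46.0% after kept peaks at 1 to 5 kb, and 55.8% and 46.5% over 50 kb. At under 1 kb they were 57.1% after gained and 33.8% after kept peaks, and for losses 62.4% after lost and 23.8% after kept peaks, so the gap was widest at the shortest distance for both. Weak peaks changed more often, so the shares were also taken at like score. With both peaks in the better 50% of the list, the next TAA peak was gained after 49.7% of gained and 27.7% of kept peaks, and the next control peak was lost after 54.7% of lost and 25.3% of kept peaks. With both in the lower 50%, the shares were 71.4% and 60.6% for gains, and 67.4% and 51.8% for losses.

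**Figure D4:**
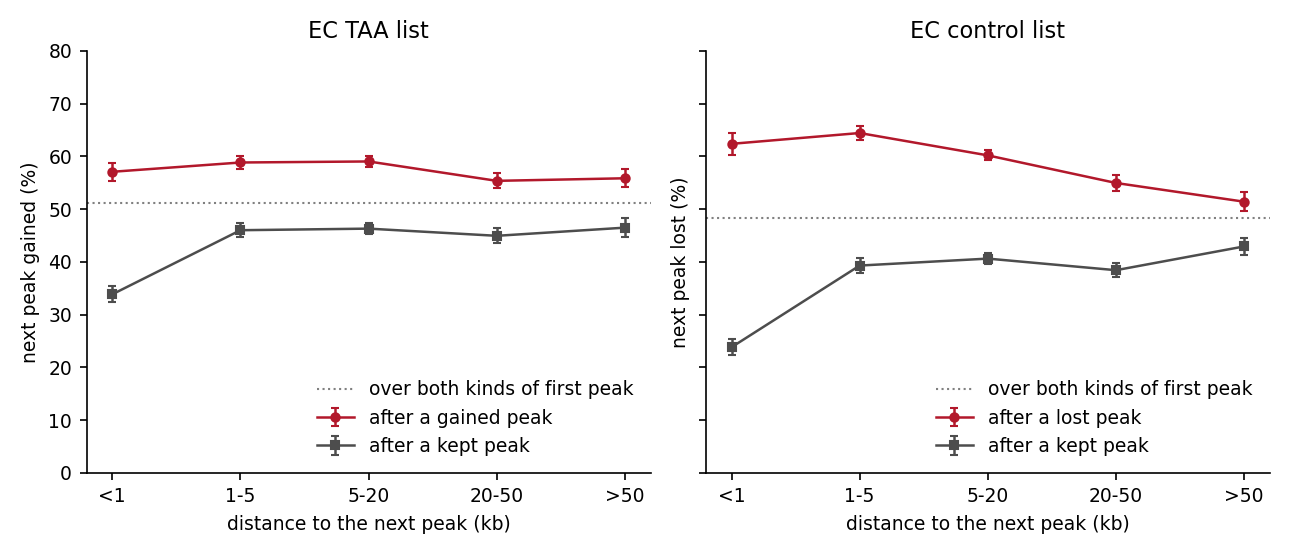
Percent of next peaks that were gained in the EC TAA list (left) or lost in the EC control list (right), by distance to the next peak in kb, after a changed peak (circles) and after a kept peak (squares), with Wilson 95% intervals and the share over both kinds as a dotted line. After a lost peak the share was 64.4% at 1 to 5 kb and 51.4% beyond 50 kb, while after a gained peak it stayed between 55.3% and 59.0%.

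Uninterrupted runs of changed peaks, counted within each list, were common. With 51.1% of TAA peaks gained and 48.4% of control peaks lost, runs also form without clustering, and the number to be expected was not computed. Gained peaks formed 1354 runs of 5 or more, which held 34.8% of them, and lost peaks formed 1293 such runs with 38.1% of them. Runs of 10 or more held 8.79% of gained and 10.5% of lost peaks. The longest gained run had 27 peaks on chromosome 20 (17750857 to 18134334). EC control had 7 peaks there, HSC TAA 27, HSC control 25, HEP TAA 16 and HEP control 17. The region was thus about as rich in peaks in HSCs as in TAA ECs.

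The longest lost run had 36 peaks on chromosome 4 (23926828 to 25133943). EC TAA had 9 peaks there, HSC TAA 26, HSC control 23 and each HEP list 13, and 17 of the 36 lost peaks were in no other list. The next lost run had 29 peaks on chromosome 9 (14402692 to 15095334), 20 of them in no other list, where EC TAA had 3 peaks. On chromosome 9 a further run of 22 lost peaks (30828529 to 31126878) held 0 EC TAA peaks and 16 peaks in no other list. The 5 longest gained runs had 23 to 27 peaks, with 2 to 10 of them in no other list. The 5 longest lost runs had 22 to 36 peaks, with 8 to 20 in no other list. Of all gained peaks 12.2% and of all lost peaks 64.0% were in no other list. The contrast between these runs therefore goes with that over all changed peaks and is not read as a trait of runs.

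**Figure D5:**
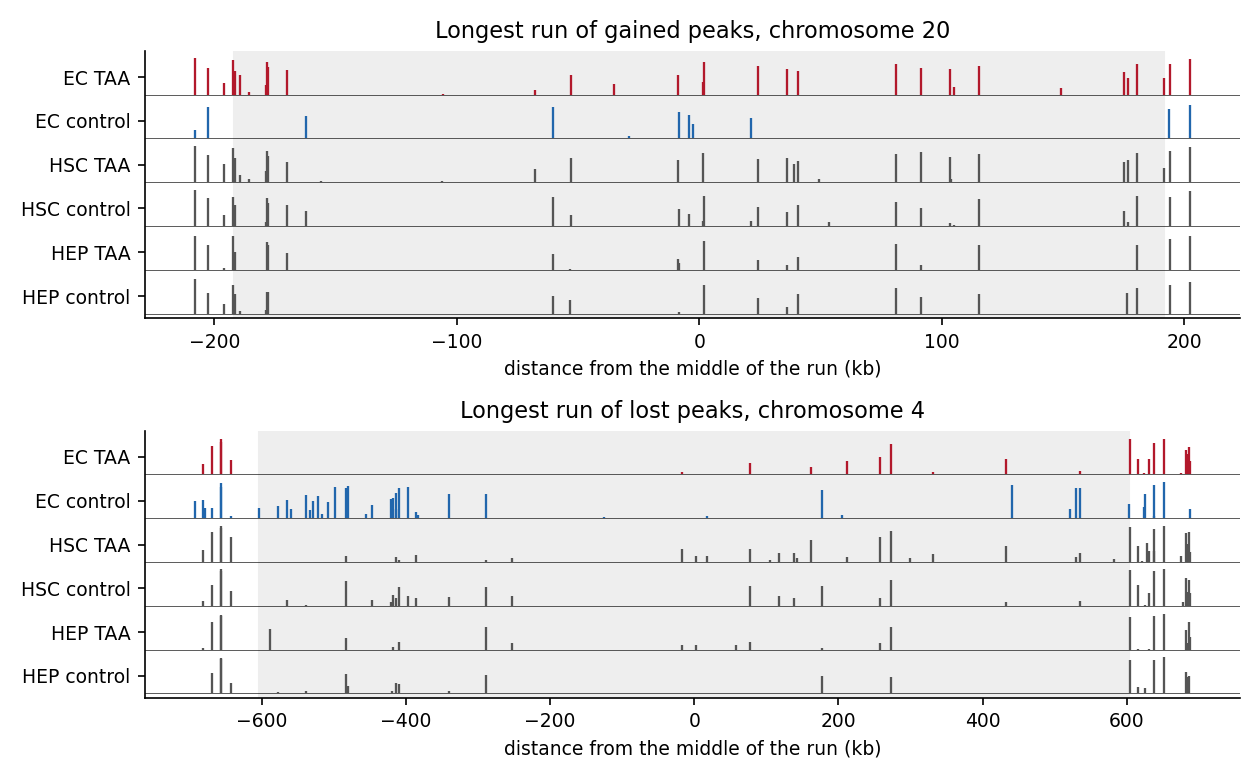
Peaks of the 6 lists along the longest gained run (top) and the longest lost run (bottom), by distance from the middle of the run in kb, with the run shaded and the height of each line giving the percentile of the score in its list. Over the gained run EC TAA had 27 peaks and EC control 7, and over the lost run EC TAA had 9 and EC control 36.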

How the data were processed

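The authors aligned ATAC-seq reads (pairs of 75 bp) to zebrafish build GRCz11 with Bowtie2 2.3.4.3 after adapter trimming with cutadapt 1.18, and kept fragments of up to 128 bp with ends moved for the transposase. Peaks were called with MACS2 2.1.0.2, with the p-value tracks of 3 libraries of a group combined by Fisher's method, at a q-value of 1e-05, and peaks over low-complexity sequence were removed with bedtools 2.27.1. Per the labels and the values, the deposited score of each peak is 10 times the negative log10 of the combined q-value. Positions are also deposited values. They are printed here counting from 1, so each printed start is 1 above the deposited start, while ends are as deposited. Read counts and usable depth are not in these lists, so p-values were not computed.

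Overlaps, ranks and Wilson intervals were computed with Python 3.11.15, numpy 2.4.6 and pandas 2.3.3, and the overlap code was tested on simulated data. Deciles and percentiles are by score within a list, with ties in rank broken by position. The 10 strongest changed peaks in each direction with a gene start within 3 kb, the 10 strongest without regard to genes, the 5 largest rises and falls of rank among kept peaks in the highest decile of either list and the 5 longest runs were named by rule. Members, lists and measures were chosen with earlier results of these data known. Promoter shares, motifs and sequences need a GRCz11 genome or annotation and were not analysed here. The alternatives tried were other overlap rules, equal list lengths, other score thresholds and merged peaks.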

Additional observations from a re-analysis of the deposited data

How the results depend on the processing

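Each group had 1 list, so no replicate could be left out. No paired analysis was possible because the replicate numbers shared by the groups belong to libraries that are pooled in the lists. The alternatives for promoters, gene lists and motifs were not run. In all, 66 alternative values were computed for 18 results, of which 18 lay inside the counting interval of the value reported and 48 outside it, and the cause of these moves was not tested unless it follows from the rule. The alternative values for strong peaks in the other lists and for other ranks of kept peaks were chosen after seeing the data.

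The gained share of 51.1% was 49.3% with lists of equal length, 49.5% with the best 20000 peaks of both lists, 50.6% with the better 50% of both, 34.4% with the better 50% against the whole other list, 55.7% with an overlap of 50% of both peaks, 52.3% with a summit inside the other peak and 46.5% with no other peak within 500 bp. The lost share of 48.4% was, in the same order, 49.4%, 49.5%, 47.8%, 36.4%, 53.1%, 49.7% and 45.1%. The lost share was above the gained share in 3 of these 7 settings. With lists of equal length or the best 20000 peaks, both lists hold equally many peaks. Both shares then nearly coincide by construction, since most kept peaks pair singly, so these settings do not bear on the order. Apart from them, the lost share was higher only with the better 50% against the whole other list. In the whole lists, 26508 of 54209 TAA peaks and 26457 of 51257 control peaks were kept. The order of the shares there thus follows list length, and the lists do not show which kind of change was more frequent. In the highest decile, the gained share of 17.6% became 25.9% with the 50% overlap rule and 10.6% in the best 5%, and the lost share of 16.1% became 18.6% and 8.94%.

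The share of next peaks gained after a gained peak, 57.7%, was 56.5% with the best 20000, 45.2% with the better 50% against the whole other list and 56.2% with peaks within 500 bp merged. The share lost after a lost peak, 59.3%, was 57.1%, 49.7% and 58.2% in these settings and 57.2% with the next peak at least 5 kb away. After a changed peak it was higher than after a kept peak in 5 of 5 settings, by 10.6 to 16.4 points for gains and 15.0 to 21.1 points for losses. The share of kept pairs up by over 25 points, 14.8%, was 12.4% with ranks among the pairs alone and 13.7% with lists of equal length, and the share down, 10.0%, was 12.6% and 11.1%, so the order turned when changed peaks were left out of the ranks. Strong lost peaks in no other list were 22.7% of those in the best 5%, and those in all 4 lists 49.3%, so the share seen in ECs only was lower among the strongest. Without read counts, a peak missing from a list cannot be told from one just under its threshold, above all in the last deciles.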

Other observations

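Changes were also counted over larger regions. In windows of 1 Mb with at least 20 EC peaks, 1281 in number, the log2 ratio of TAA to control peaks (1 added to both) had a median of 0.07 and quartiles of -0.20 and 0.36. It passed a change of 2-fold upward in 26 windows and downward in 18. Windows with few peaks give such ratios by counting error too, and the number to be expected was not computed. The window on chromosome 13 from 20000001 to 21000000 had 32 EC TAA peaks, 30 of them gained, against 3 EC control peaks, while HSC TAA had 33 and HSC control 24. The window on chromosome 1 from 56000001 to 57000000, where the complement gene c3a.1 lies, had 49 EC TAA peaks against 12 in EC control, with 41 gained and 4 lost, while HSC TAA had 56 and HSC control 43. The window on chromosome 15 from 10000001 to 11000000 had 21 EC TAA peaks, all gained, against 4 EC control peaks, all lost. There HSC TAA had 19 peaks and HSC control 4, and HEP TAA had 2 and HEP control 10.

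Among windows poorer in TAA, chromosome 10 from 4000001 to 5000000, which holds the lost palm2akap2 peak, had 19 EC TAA peaks against 56 in EC control, 43 of them lost. HSC TAA had 25 peaks there, HSC control 24, HEP TAA 18 and HEP control 15. The window on chromosome 18 from 11000001 to 12000000 had 6 EC TAA peaks against 21 in EC control. There HSC TAA had 18 peaks, HSC control 15, HEP TAA 7 and HEP control 6. Control ECs had the most peaks in both windows. The windows were chosen for a low ratio of EC TAA to EC control peaks, which favours a high EC control count.

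By whole chromosome, the gained share was highest on chromosome 7 (54.1%) and lowest on chromosome 10 (46.6%), and the lost share was highest on chromosome 9 (54.9%) and lowest on chromosome 22 (41.7%). Chromosome 23 had a gained share of 53.4% and a lost share of 52.5%, and chromosome 24 had 53.8% and 51.2%, so that both were among the 3 highest in either direction.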
